A study of Mus musculus with 675 samples.

Results

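Fos-high smooth muscle cells are the aortic smooth muscle cells with the most Fos mRNA. They were set against Fos-low cells, the ones with the least. Smooth muscle cells were taken as cells with at least 1000 CPM of Myh11 (CPM is a gene's count scaled to a cell total of 1e+06) and 500 CPM of Cnn1, under 100 CPM of Cdh5, and fewer than 2 of the 4 fibroblast genes Dcn, Lum, Serpinf1 and Pi16 at 100 CPM or more. Of 675 cells, 548 passed. The members were then chosen by their measured Fos CPM: the cells of each plate were ranked and divided into 4 quartiles. The top quartiles held 73 Fos-high cells on plate A, whose wells are titled aorta_594s, and 63 on plate B, titled aorta_912s. The bottom quartiles held as many Fos-low cells, 73 and 63, and the other smooth muscle cells formed the lower and upper middle quartiles.

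The study catalogued mouse smooth muscle, and these cells carry the tissue label aorta. They came from male C57BL/6 mice aged 10 weeks, with no treatment or altered gene in the labels, and each plate holds a pool of 2 mice. Expression was measured by Smart-seq2, in which full-length cDNA of each sorted cell is amplified without molecular identifiers. Both groups of a plate shared its pool of 2 mice and its handling, but the labels do not give the mouse of each cell. Whether the groups held both mice in like shares was therefore not tested. Every cell was measured after enzymatic dissociation, so levels in the intact vessel were not measured. The protocol text names the heart although the tissue label is aorta. The plate is the replicate (n = 2), and plate and mice cannot be told apart.

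Fos is a classic immediate early gene: cells transcribe such genes within minutes of a stimulus without making new protein first. Kinase signals act on factors already bound at these promoters, among them CREB at cAMP response elements and SRF at CArG boxes. Fos protein pairs with Jun proteins to form the transcription factor AP-1. Other early genes encode phosphatases and RNA-decay factors that shut the response off, and their short-lived mRNAs make the response brief.

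The promoters of Fos and of 3 genes that were higher in Fos-high cells are shown because they share the core of the cAMP response element, TGACG. They are RefSeq sequences of build GRCm38.p6, from 250 bases before to 50 after the annotated start, and capitals mark TGACG or its reverse complement CGTCA. Fos lies on the plus strand (chr12:85473640-85473939), Nr4a1 on the plus strand (chr15:101266596-101266895), Btg2 on the minus strand (chr1:134079106-134079405) and Dusp1 on the minus strand (chr17:26508423-26508722).
Fos: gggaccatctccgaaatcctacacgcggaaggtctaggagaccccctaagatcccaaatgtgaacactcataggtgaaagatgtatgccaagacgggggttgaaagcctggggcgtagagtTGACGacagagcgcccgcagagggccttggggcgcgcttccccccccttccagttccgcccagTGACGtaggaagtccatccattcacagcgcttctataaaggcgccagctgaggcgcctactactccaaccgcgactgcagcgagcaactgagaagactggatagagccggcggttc
Nr4a1: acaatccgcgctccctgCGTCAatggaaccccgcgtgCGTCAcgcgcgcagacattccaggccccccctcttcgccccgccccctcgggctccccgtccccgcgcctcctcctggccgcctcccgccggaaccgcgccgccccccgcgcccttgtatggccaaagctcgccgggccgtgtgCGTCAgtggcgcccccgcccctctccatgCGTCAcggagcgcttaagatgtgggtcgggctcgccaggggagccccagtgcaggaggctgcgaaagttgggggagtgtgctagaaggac
Btg2: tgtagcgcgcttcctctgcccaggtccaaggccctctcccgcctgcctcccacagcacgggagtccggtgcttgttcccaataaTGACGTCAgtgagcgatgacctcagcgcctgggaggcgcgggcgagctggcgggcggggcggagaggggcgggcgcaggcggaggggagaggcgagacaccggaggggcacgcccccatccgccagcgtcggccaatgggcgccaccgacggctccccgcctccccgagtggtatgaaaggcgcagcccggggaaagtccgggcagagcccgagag
Dusp1: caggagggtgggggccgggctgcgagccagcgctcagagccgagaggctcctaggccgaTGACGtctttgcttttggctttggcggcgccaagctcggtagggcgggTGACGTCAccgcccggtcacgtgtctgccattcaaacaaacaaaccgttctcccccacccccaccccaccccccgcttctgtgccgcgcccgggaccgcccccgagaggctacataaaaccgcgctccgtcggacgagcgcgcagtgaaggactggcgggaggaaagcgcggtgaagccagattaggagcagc
The Fos window holds 2 cores, the nearer one 66 bases before the start. The Nr4a1 window holds 4, the nearest 69 and 40 bases before the start. Btg2 and Dusp1 each hold the complete palindrome TGACGTCA, in which 2 cores on opposite strands overlap, and Dusp1 holds 1 further core upstream. Over 32851 RefSeq promoter windows of this length, searched on both strands, 20.8% held the core and 1.79% the palindrome. Of the 9 genes called below, 8 had a window that was searched; the window of Egr1 was not searched here. The core was found in 7 of those 8 windows, the palindrome in 2, the AP-1 site TGANTCA in 0 (7.81% of all windows) and the CArG box in 0 (1.63%). With 8 windows and such low shares, finding 0 does not show that these sites are lacking. Sites more than 250 bases before the start were not searched. The windows of Jun and Zfp36, which were not called, held 0 cores, and that of Zfp36 held 1 CArG box. A match is a description of the letters, not a site of binding.

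Fos itself chose the groups, so its values are given without a test. Fos-high cells of plate A held 1952 to 6255 CPM with a median of 2877, against 0 to 33.6 CPM with a median of 15.4 in Fos-low cells. On plate B Fos-high cells held 1342 to 5888 CPM with a median of 2125, and Fos-low cells 2.85 to 59.2 CPM with a median of 28.03. The next cell under the upper edge had 1848 CPM on plate A and 1299 CPM on plate B, and the next cell over the lower edge had 33.9 and 60.6 CPM. The edges therefore cut a continuous range and not a gap. Fos-high cells held 66.5% and 71.1% of the Fos counts of all smooth muscle cells of plates A and B. Fos mRNA was also found outside the gate, where 14 of 72 cells of plate A and 6 of 55 cells of plate B exceeded the lowest Fos-high cell of their plate.

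**Figure D1:**
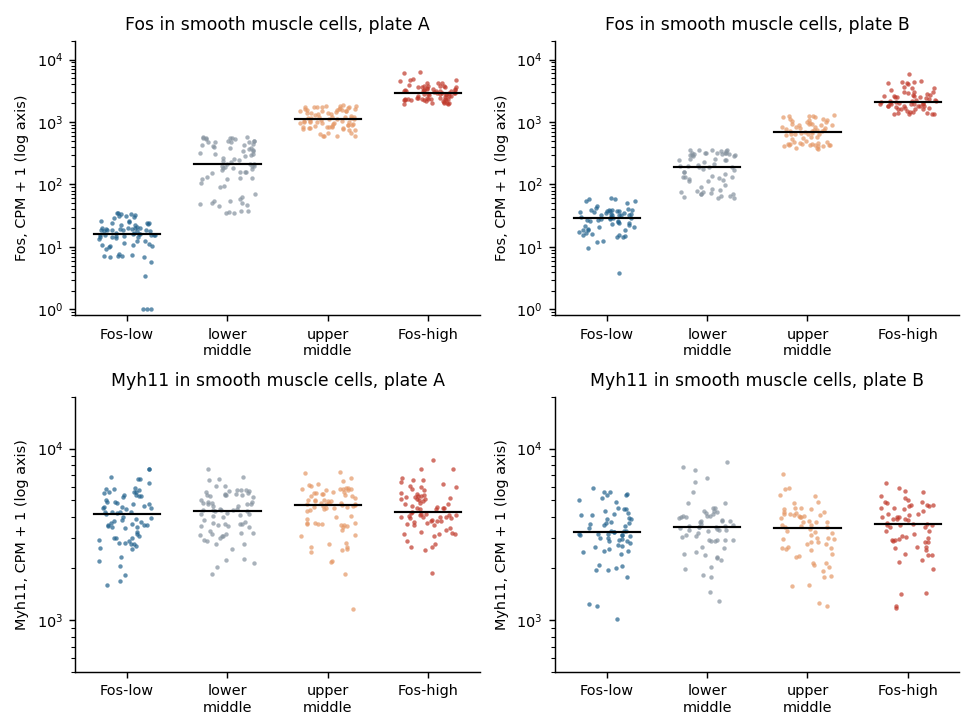
Fos (top) and Myh11 (bottom) in each smooth muscle cell of plates A (left) and B (right), as CPM + 1 on a log axis, by Fos quartile from Fos-low to Fos-high. Points are cells and bars are medians; the Fos quartiles were made from these Fos values, and the Fos medians of the Fos-high cells are 2877 and 2125 CPM while the Myh11 points of all 4 quartiles cover similar ranges.

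The label smooth muscle held in both groups. Myh11, the smooth muscle myosin heavy chain that the gate used, was at 4385 and 3549 CPM in Fos-high cells of plates A and B and at 4083 and 3429 CPM in Fos-low cells. Among contractile genes that the gate did not use, Acta2, smooth muscle actin, was at 6997 and 5610 CPM in Fos-high cells against 6412 and 6048 CPM in Fos-low cells. Tagln, the actin-binding protein transgelin, was at 2856 and 2573 CPM in Fos-high cells against 2673 and 2736 CPM in Fos-low cells. Acta2 and Tagln differed in opposite directions on the plates. Median depth was 281672 and 331651 counts per Fos-high cell against 306359 and 298512 per Fos-low cell, and genes detected per cell had a median of 5377 and 6376 against 5308 and 6040. Mitochondrial transcripts took a median of 1.94% and 1.59% of counts in Fos-high cells against 1.87% and 1.84% in Fos-low cells.

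Markers of macrophages, T cells and Schwann cells were low in both groups, while pericyte markers were not. Adgre1 and C1qa, which define macrophages, and Cd3e, Cd3g and Cd2 of T cells were at 0 in all sums. Ptprc of leukocytes and Sox10 of Schwann cells were each at 0.0474 CPM in Fos-high cells of plate A, against 0.0433 CPM in Fos-low cells, and at 0 in both groups of plate B. The 6 macrophage markers summed to 25.5 and 9.68 CPM in Fos-high cells of plates A and B, against 6.79 and 2.23 CPM in Fos-low cells. Most of the difference was Csf1r, the receptor for macrophage colony stimulating factor, at 14.5 and 9.68 CPM against 0.433 and 1.32 CPM. On plate B 1 cell held 79.6% of the Fos-high counts of Csf1r, and 2.03 CPM remained without it. On plate A the top cell held 20.8%. The 6 endothelial markers summed to 85.6 and 85.5 CPM in Fos-high cells against 114.6 and 33.7 CPM in Fos-low cells, and the 5 pericyte markers to 839 and 664 CPM against 1002 and 583 CPM. The 6 fibroblast markers, 4 of which the gate used, summed to 103.05 and 98.7 CPM against 113.4 and 93.3 CPM. The part of these transcripts in the results was not tested.

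Counts were summed over the cells of each plate and quartile and fitted with edgeR's quasi-likelihood test with the plate as a block. Of 14823 genes tested, 9 were called at a Benjamini-Hochberg adjusted p under 0.05 (0.0607% of the genes tested), all higher in Fos-high cells. They are the transcription factor genes Egr1, Fosb, Junb, Atf3 and Nr4a1, the feedback genes Btg2 and Dusp1, the secreted matrix protein gene Ccn1 and the antioxidant gene Gpx3. Of these, 8 belong to lists of the early response. None was called lower. At an unadjusted p under 0.05, 372 genes were higher (2.51%) and 300 lower (2.02%). DESeq2 called 30 genes higher (0.202%) and 17 lower (0.115%), among them all 9, and limma on mean log values called 20 (0.135%). Of the genes described below as not called by edgeR, DESeq2 called Jun, Ier2, Klf2, Zfp36, Errfi1 and Hspa1a higher and Lgals3, S100a4, Itga5 and Sncg lower. Csf1r, described above, was called by DESeq2 and limma but not by edgeR. Without the plate block 0 genes were called, and with 2 other scalings of library size 5 were (Btg2, Egr1, Fosb, Junb and Nr4a1). Since cells were ranked by Fos, a call says that a gene's summed mRNA differed between the ends of the Fos ranking. A few cells can carry such a sum, as they did for Gpx3 below.

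**Figure D2:**
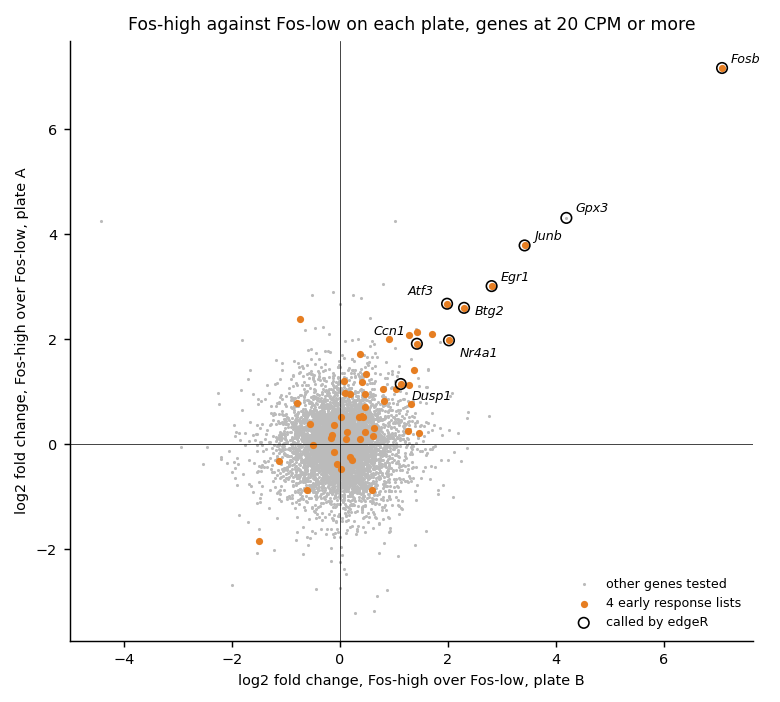
Log2 fold change of Fos-high over Fos-low cells on plate A (y axis) against plate B (x axis) for genes with a mean of at least 20 CPM over the sums; orange points are the genes of 4 early response lists, grey points other genes, circles the called genes. The 9 called genes lie in the upper right, from Dusp1 at 1.15 and 1.13 to Fosb at 7.16 and 7.08 on plates A and B.

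Among the partners of Fos in AP-1, Junb (chr8:84974484-84978718, minus strand, GRCm38), a Jun protein with weaker activation than Jun, was 13.7-fold higher in Fos-high cells on plate A and 10.9-fold higher on plate B. Its summed level was 367.1 and 324.9 CPM in Fos-high cells of plates A and B, against 26.8 and 29.8 CPM in Fos-low cells (log2 fold change 3.61 ± 0.19 (SE), edgeR adjusted p = 0.004). Single cells overlapped: Fos-high cells of plate A ranged from 0 to 1732 CPM with a median of 153.3, and Fos-low cells from 0 to 357.2 CPM with a median of 2.5. At 100 CPM or more Junb was found in 40 of 73 and 33 of 63 Fos-high cells, against 8 and 7 Fos-low cells. Junb was thus absent or low in many Fos-high cells, yet rarely high in Fos-low ones.

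Fosb (chr7:19302696-19310051, minus strand, GRCm38), the Fos paralogue that also pairs with Jun proteins, had the largest called log2 fold change, 7.34 ± 0.38 (SE, adjusted p = 0.004). It was at 160.6 and 54.4 CPM in Fos-high cells of plates A and B, against 1.04 and 0.304 CPM in Fos-low cells. Its mRNA came from a minority of the cells: 24 of 73 and 9 of 63 Fos-high cells reached 100 CPM, and 0 Fos-low cells of either plate did. The median Fos-high cell had 3.9 CPM on plate A and 0 CPM on plate B. On plate B a single cell held 31.3% of the Fos-high counts of Fosb, and without that cell the level was 38.4 CPM.

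Atf3, a stress-induced factor of the ATF/CREB family that can pair with Jun proteins, was at 391 and 270.3 CPM in Fos-high cells, against 61.8 and 67.2 CPM in Fos-low cells (log2 fold change 2.33 ± 0.22 (SE), adjusted p = 0.042). Jun, the main partner of Fos, was at 505 and 318.4 CPM in Fos-high cells against 116.2 and 116.7 CPM in Fos-low cells, a log2 fold change of 1.78 that was not called (adjusted p = 0.141). Junos, an antisense transcript that overlaps the Jun gene on the other strand, was at 41.3 and 37.7 CPM in Fos-high cells against 9.47 and 13.5 CPM in Fos-low cells. No label says whether counting used the strand, so reads of Jun and Junos cannot be told apart. Fosl2, a Fos-related AP-1 subunit, was at 68.1 and 51.6 CPM in Fos-high cells against 25.95 and 19.5 CPM in Fos-low cells (log2 fold change 1.39, not called). Jund, a Jun protein present in resting cells, was at 513 and 265.7 CPM against 358.8 and 196.9 CPM (log2 fold change 0.47, not called). Of 12 AP-1 genes listed, 10 were tested, 3 were called and the median log2 fold change was 1.59, beside -0.00066 over all genes tested.

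Egr1, a zinc finger factor induced through SRF and related signals, had the smallest adjusted p of all genes. It averaged 1293 ± 205.5 CPM in Fos-high cells and 172.8 ± 41.1 CPM in Fos-low cells (SD, n = 2 plates; log2 fold change 2.91 ± 0.12 (SE), adjusted p = 0.003). On plate A Fos-high cells ranged from 5.8 to 4850 CPM with a median of 987, against 0 to 1384 CPM with a median of 10.2 in Fos-low cells. On plate B Fos-high cells ranged from 0 to 4645 CPM with a median of 1298, against 6.4 to 1767 CPM with a median of 37.6 in Fos-low cells. The ranges overlapped on both plates while the medians lay far apart. Egr1 reached 100 CPM in 66 of 73 and 54 of 63 Fos-high cells, and also in 23 and 18 Fos-low cells, so Egr1 at that level also occurred in cells with little Fos.

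Nr4a1, an orphan nuclear receptor induced by cAMP and calcium signals, was at 488 and 847 CPM in Fos-high cells of plates A and B, against 125.1 and 205.8 CPM in Fos-low cells (log2 fold change 2.00 ± 0.13 (SE), adjusted p = 0.008). The fold was close on the plates, 3.90 and 4.12, although the levels of plate B were higher in both groups. Ier2, a nuclear early response protein, was at 337.8 and 201.3 CPM in Fos-high cells against 80.3 and 81.4 CPM in Fos-low cells, and was not called (log2 fold change 1.69, adjusted p = 0.375). Klf2, a Krüppel-like factor known for its induction by flow in endothelium, was at 111.1 and 41.4 CPM against 26.1 and 12.4 CPM and was not called (log2 fold change 1.91, adjusted p = 0.740). Not every early factor had this pattern. Klf4 was at 16.3 and 7.06 CPM in Fos-high cells against 14.1 and 9.42 CPM in Fos-low cells, and Myc stayed below 10 CPM in every quartile. Srf, the factor that binds CArG boxes, was at 60.6 and 54.5 CPM against 72.2 and 47.2 CPM. Of 29 listed early transcription factors other than AP-1, 28 were tested and 2 were called, with a median log2 fold change of 0.50.

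Btg2 and Dusp1, which restrain the early response, were higher in Fos-high cells. Btg2, an antiproliferative protein that speeds mRNA deadenylation, was at 853 and 528 CPM in Fos-high cells of plates A and B, against 142.4 and 105.6 CPM in Fos-low cells (log2 fold change 2.45 ± 0.14 (SE), adjusted p = 0.006). Its cell medians were 770 and 370 CPM in Fos-high cells against 24.8 and 20.2 CPM in Fos-low cells, and the ranges overlapped. Dusp1, a phosphatase that inactivates MAP kinases, was at 1222 and 1300 CPM in Fos-high cells against 558 and 587 CPM in Fos-low cells (log2 fold change 1.14 ± 0.10 (SE), adjusted p = 0.042). Dusp1 was common in both groups: 54 of 73 and 55 of 63 Fos-low cells still reached 100 CPM, against 69 and 61 Fos-high cells. Zfp36, or tristetraprolin, which directs AU-rich mRNAs to decay, was at 369 and 360.4 CPM in Fos-high cells against 92.8 and 190.4 CPM in Fos-low cells, with a log2 fold change of 1.45 that was not called. Errfi1, a feedback inhibitor of the EGF receptor, was at 106.4 and 122.2 CPM against 49.4 and 49.4 CPM (log2 fold change 1.204, not called). Of 36 feedback genes listed, 33 were tested and 2 called, with a median log2 fold change of 0.60.

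Among secreted products, Ccn1 (Cyr61), a matrix protein that binds integrins, was at 1375 and 1706 CPM in Fos-high cells of plates A and B, against 369 and 626 CPM in Fos-low cells (log2 fold change 1.67 ± 0.14 (SE), adjusted p = 0.041). Its cell medians were 1131 and 1638 CPM in Fos-high cells against 110.96 and 314.7 CPM in Fos-low cells. Ccn2, its relative, was at 635 and 820 CPM against 574 and 532 CPM and was not called. The cytokine genes Il6, Lif, Ccl2 and Ccl7 stayed below 1 CPM in both groups. Of 24 secreted early genes listed, 15 were tested and 1 called, with a median log2 fold change of 0.11.

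Gpx3, a secreted glutathione peroxidase, is the called gene outside these lists, and its call rested on 2 cells. It was at 72.2 and 64.8 CPM in Fos-high cells against 3.59 and 3.39 CPM in Fos-low cells (log2 fold change 4.29 ± 0.39 (SE), adjusted p = 0.042). A single Fos-high cell held 94.2% of its counts on plate A and 94.5% on plate B. Without these cells Gpx3 was at 4.25 and 3.58 CPM, and it was not called. Atf3, Ccn1 and Dusp1 were not called either with these 2 cells left out, while Btg2, Egr1, Fosb, Junb and Nr4a1 still were.

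Over the 4 early response lists as 1 group, 86 genes were tested and 8 called. The choice of these lists followed known results of these data, so the counts describe them. At an unadjusted p under 0.05, 29 of the 86 were higher and 2 lower, beside the 2.51% and 2.02% over all genes tested. On both plates 52 of 86 (60.5%) were higher in Fos-high cells, against 24.8% of all genes.

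**Figure D3:**
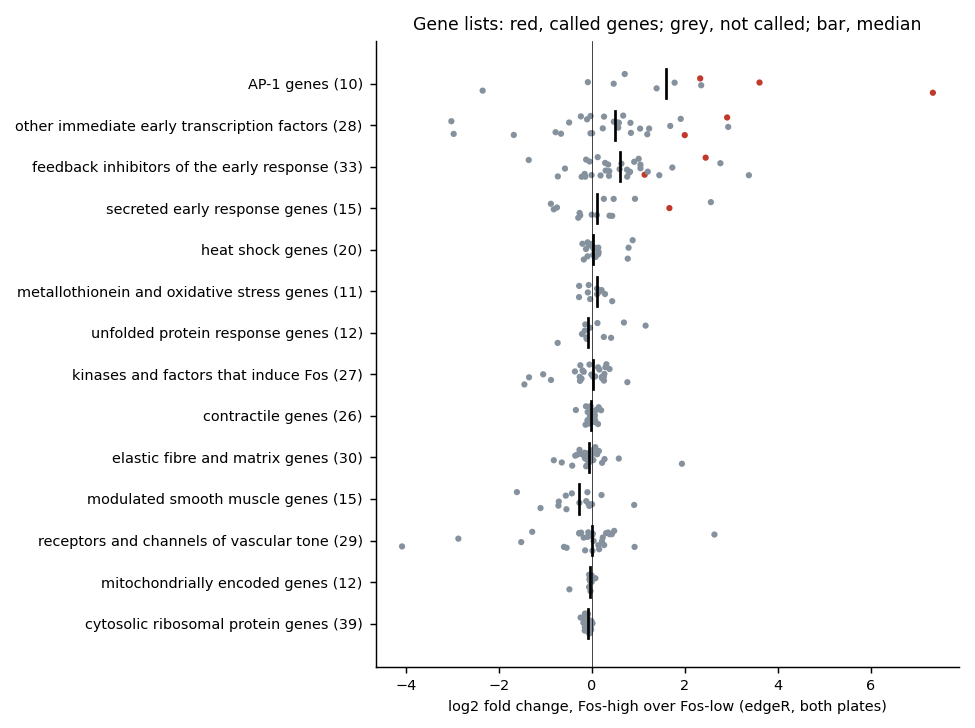
Log2 fold change of Fos-high over Fos-low cells for the tested members of 14 gene lists, 1 point per gene, called genes in red, others in grey, a bar at each list's median and the number tested in brackets. The medians are 1.59 for AP-1 genes, 0.50 for other early transcription factors and 0.60 for feedback genes, and between -0.27 and 0.11 for the lists below them.

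Most called early genes were higher in each quartile than in the quartile below it. Over the 4 quartiles from Fos-low to Fos-high, Egr1 was at 143.7, 221.5, 595 and 1148 CPM on plate A and at 201.9, 470, 655 and 1438 CPM on plate B. Btg2 was at 142.4, 237.7, 380 and 853 CPM on plate A and at 105.6, 216.1, 302.7 and 528 CPM on plate B. Of the 9 called genes, 6 rose at every step on both plates, namely Atf3, Btg2, Dusp1, Egr1, Junb and Nr4a1, and Jun did so too. Over all 14823 genes, 39 did (0.263%). Fosb did not: on plate B it was at 0.304, 5.61, 5.42 and 54.4 CPM, so it appeared chiefly in the top quartile there. The cells compared above form both ends of these steps, so the middle quartiles were also compared by themselves.

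**Figure D4:**
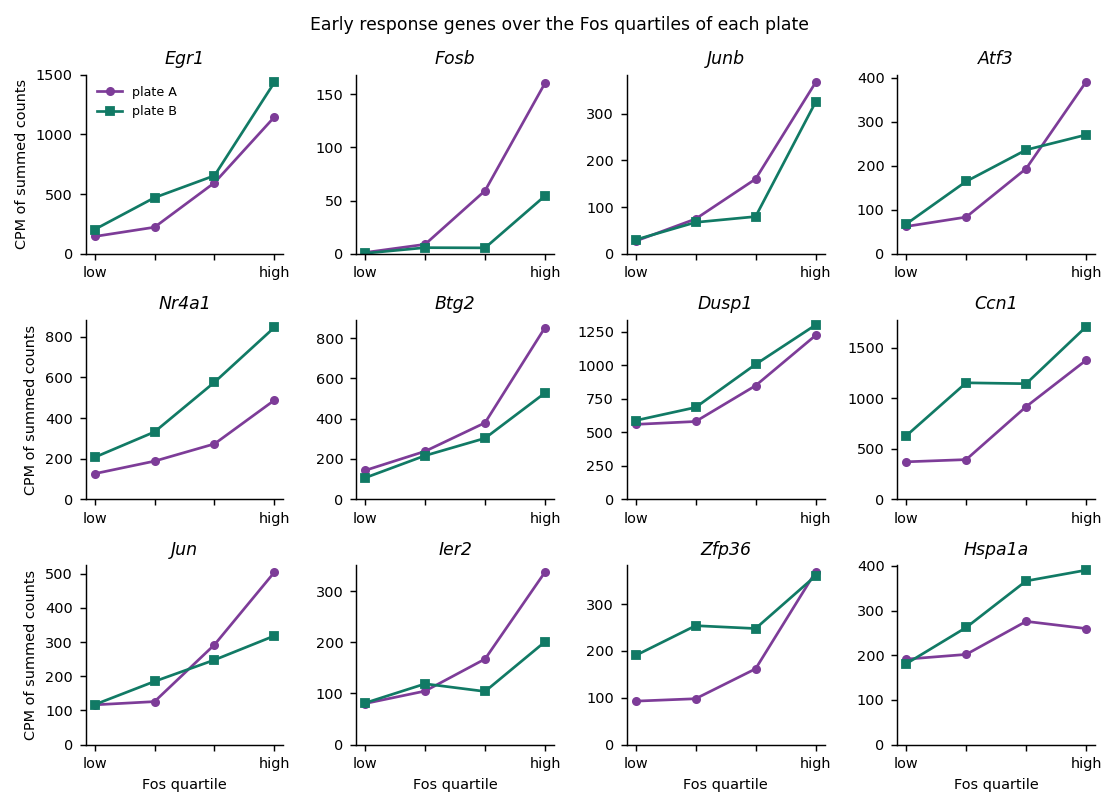
Summed CPM of 12 early response genes over the 4 Fos quartiles from low to high, for plate A (circles) and plate B (squares). Egr1, Junb, Btg2, Atf3, Nr4a1, Dusp1 and Jun rise at every step on both plates, while Fosb on plate B is at 5.42 CPM in the upper middle quartile and 54.4 CPM in the top quartile.

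The upper against the lower middle quartile used cells that neither group held. No gene was called there by edgeR among 14913 tested, with 598 at an unadjusted p under 0.05 (4.01%). The log2 fold change was 0.54 ± 0.08 (SE) for Dusp1, 0.66 ± 0.11 for Nr4a1, 0.57 ± 0.12 for Btg2 and 0.94 ± 0.23 for Egr1. All 9 called genes had a positive log2 fold change in it, and 7 of the 9 were higher on both plates, Ccn1 and Fosb being the exceptions. The share of all genes higher on both plates was not counted for this comparison. Single cells weighed on 2 of the 9 genes. In the upper middle quartile of plate A, 1 cell held 93.1% of the Gpx3 counts, and 3.39 CPM remained without it. There, 1 cell held 79.5% of the Fosb counts, and 12.4 CPM remained. On plate B Gpx3 was at 3.81 against 3.64 CPM.

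Cell by cell, early genes were found together more often in Fos-high cells. The 8 called early genes were scored in each cell as reaching 100 CPM or not. The median Fos-high cell had 6 of 8 on both plates, against 2 of 8 on plate A and 3 of 8 on plate B in Fos-low cells. At least 6 of the 8 were found in 39 of 73 and 35 of 63 Fos-high cells, against 0 of 73 and 3 of 63 Fos-low cells. The genes counted are those called between the same cells, so the counts are a description. Only 8 and 3 Fos-high cells of plates A and B had all 8 genes. Fosb caps this count, since 24 of 73 and 9 of 63 Fos-high cells reached 100 CPM of it. Whether the makeup differed from cell to cell or genes were missed in single cells was not tested.

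**Figure D5:**
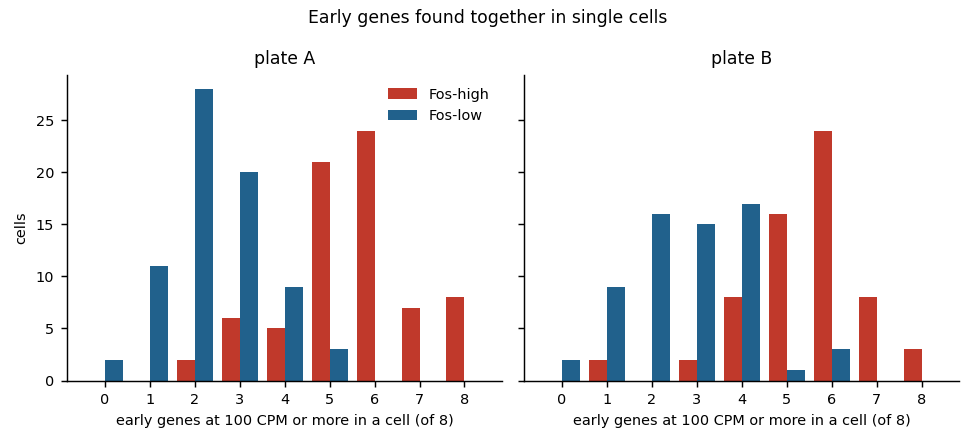
Number of cells (y axis) by how many of 8 called early genes reach 100 CPM in the cell (x axis), for Fos-high (red) and Fos-low (blue) cells of plate A (left) and plate B (right). The median is 6 genes in Fos-high cells of both plates, against 2 and 3 genes in Fos-low cells, and the distributions overlap at 2 to 5 genes on plate A.

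Ranking by another gene picked overlapping but different cells. Of the 73 cells of plate A with the most Egr1, 42 were Fos-high and 3 Fos-low, and of the 63 of plate B, 35 were Fos-high and 2 Fos-low. Over all smooth muscle cells Spearman's rho with Fos was 0.58 and 0.49 for Egr1 on plates A and B, ranked within the plate over 548 cells in all. It was 0.47 and 0.41 for Btg2, 0.36 and 0.40 for Dusp1, 0.45 and 0.34 for Ccn1, and 0.38 and 0.34 for Junb. These were the 5 highest of 7713 genes, ordered by the lower of the plates. The cells of a plate come from the same pool of mice, share its handling and differ in depth. Within Fos-high cells the values were lower for these genes in most cases: Egr1 had 0.30 and 0.16, Dusp1 0.10 and 0.15, and Junb 0.19 and 0.41 (73 and 63 cells). Fos-high cells cover only the top of the Fos ranking, and such a cut by itself lowers rho. The lower values therefore do not show a weaker relation to Fos within these cells.

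The edgeR test called no stress, contractile or matrix gene of the lists, and DESeq2 called Hspa1a among them. Hspa1a, an inducible Hsp70 chaperone, was at 259.8 and 391 CPM in Fos-high cells of plates A and B, against 191.3 and 180.9 CPM in Fos-low cells, and was not called by edgeR (log2 fold change 0.77). Of 20 heat shock genes tested, 0 were called by edgeR, 1 was higher at an unadjusted p under 0.05, and the median log2 fold change was 0.03. No call was made among 11 metallothionein and oxidative stress genes, 12 genes of the unfolded protein response or 27 kinases and factors that induce Fos. Of 26 contractile genes, 0 were called and 0 reached an unadjusted p under 0.05, with log2 fold changes from -0.34 to 0.20. Myocd, the coactivator that drives contractile genes, was at 427 and 871 CPM in Fos-high cells against 460 and 817 CPM in Fos-low cells. Eln, elastin, was at 2696 and 2041 CPM against 2655 and 1860 CPM. Of 30 elastic fibre and matrix genes, 1 was higher and 2 lower at an unadjusted p under 0.05, and 29 receptor and channel genes of vascular tone had a median log2 fold change of 0.01. Counts of 0 calls do not show that these genes were alike, since the design has 2 plates.

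Genes lower in Fos-high cells were not called by edgeR. The first by p was Lgals3, galectin-3, which rises when smooth muscle leaves its contractile state. It was at 52.7 and 44.6 CPM in Fos-high cells of plates A and B, against 136.04 and 160.8 CPM in Fos-low cells (log2 fold change -1.61 ± 0.23 (SE), adjusted p = 0.429). At 100 CPM or more it was found in 10 of 73 and 7 of 63 Fos-high cells, against 17 and 21 Fos-low cells. Between the middle quartiles its log2 fold change was -0.020, with opposite directions on the plates. Over all smooth muscle cells its rho with Fos was -0.019 on plate A and -0.11 on plate B. From Fos-low to Fos-high it fell at every step on plate B, at 160.8, 117.9, 87.4 and 44.6 CPM. On plate A it did not, at 136.04, 62.9, 84.2 and 52.7 CPM. S100a4, a calcium-binding protein of modulated smooth muscle and fibroblasts, was at 179.8 and 256.6 CPM against 277.3 and 443 CPM. Its log2 fold change was -0.71 (not called by edgeR), and 0.029 between the middle quartiles. DESeq2 and limma called S100a4 lower. For S100a4, rho with Fos over all smooth muscle cells was -0.14 on plate A and -0.25 on plate B. This was rank 5 among the lowest of 7713 genes, ordered by the higher of the plates. From Fos-low to Fos-high S100a4 fell at every step on plate A, while on plate B it rose between the middle quartiles. The annotated gene Gm42674 overlaps S100a4 on the same strand, so reads of the pair cannot be told apart. Itga5, an integrin subunit for fibronectin, was at 250.3 and 464 CPM against 406 and 738 CPM (log2 fold change -0.69, not called). Sncg, gamma-synuclein, was at 53.8 and 57.9 CPM against 116.1 and 160.2 CPM (log2 fold change -1.29, not called). Of 15 modulated smooth muscle genes tested, 8 were lower and 0 higher in Fos-high cells on both plates, against 25% of all genes lower on both plates, and the median log2 fold change was -0.27. Vim, vimentin, of the same list, was at 4195 and 3519 CPM against 4118 and 3932 CPM. Postn, periostin, a matrix protein, was at 1381 and 2127 CPM against 1770 and 2707 CPM (log2 fold change -0.36, not called; 0.0094 between the middle quartiles). The 39 cytosolic ribosomal protein genes had a median log2 fold change of -0.09, with 26 lower and 0 higher on both plates and 0 called.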

How the data were processed

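The authors deposited raw counts, whole numbers for 46517 genes in every cell. The submitters' processing notes name Subread, featureCounts, Bowtie2, Bowtie and bcl2fastq and the build GRCm38 (mm10). Versions, strand setting and duplicate handling are not stated there. Symbols came from GENCODE M21 (46005 identifiers matched; the other 512 held 0.217% of counts). CPM is the count over the cell's total, scaled to 1e+06. A cell held 51886 to 713700 counts. Amplified reads are not separate molecules.

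Counts were summed per plate and quartile (19741202 to 23118352 in the Fos-high and Fos-low sums) and fitted in edgeR 4.0.16 (R 4.3.3; filterByExpr, TMM, plate block, quasi-likelihood test, Benjamini-Hochberg threshold 0.05). The 8 genes of the rule were left out of the test. The plate is the block because both groups of a plate come from the same pool of mice. The labels do not give the mouse of each cell, so the block cannot remove a difference between the mice of a plate. With the plate block, a p-value sets the difference between the groups against how that difference varied between the 2 plates. This leaves 1 residual degree of freedom per gene. The spread used was therefore mostly borrowed from other genes (median prior degrees of freedom 5.35). The code was tested on simulated data, no doublet caller was run, and 0 pairs of cells had identical counts. Named genes were the called ones, the next by p, and a list of early and contractile genes. The next by p had the same sign on both plates. In the higher group of each plate they had at least 20 CPM in the sum and a count in at least 25% of cells. Fosl2, Errfi1, Junos, Csf1r and the cytokine genes were named after their values were seen. Members and lists were chosen with earlier results of these data known. Alternatives changed the tool (DESeq2 1.42.0, limma), scaling, filter, depth, gate and share of cells.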

Additional observations from a re-analysis of the deposited data

How the results depend on the processing

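All 9 called genes had a positive log2 fold change under every alternative and on each plate alone. On a single plate no test was possible, because it leaves no residual degree of freedom. The genes were called from these same 2 plates, so their sign on each plate is no separate support. All alternatives but the middle quartiles used the same or overlapping cells. The count of calls moved widely. With no replicate block, which ignores that both groups of a plate come from the same pool of mice, 0 genes were called (431 at an unadjusted p under 0.05). DESeq2 called 47 genes, the 9 among them. Upper quartile scaling and total counts alone each gave 5 (Btg2, Egr1, Fosb, Junb and Nr4a1). Cells thinned to 50000 counts and ranked again gave 15. Quartiles taken within 5 classes of depth gave 2 (Btg2 and Egr1), wider groups (98 and 84 cells) 3, narrower ones (29 and 25 cells) 3, the middle quartiles 0 and a stricter gate with 2000 CPM of Myh11 4. Of 2 alternatives chosen after seeing the data, limma on the mean log2(CPM + 10) of the cells called 20 genes (18 higher, 2 lower). They held 8 of the 9, without Gpx3. The other, leaving out the 2 cells with most Gpx3, called 5 (Btg2, Egr1, Fosb, Junb and Nr4a1). The other alternatives stayed within 1.5 times the count of 9. Egr1 was called in 13 of 15 alternatives, Junb and Btg2 in 12, Fosb in 11, Nr4a1 in 9, Atf3, Ccn1 and Dusp1 in 6 and Gpx3 in 5. Between the middle quartiles the log2 fold change turned positive for S100a4 (0.029), Gm42674 (0.036), Ahnak2 (0.28), Postn (0.0094), Fam234a (0.57) and Tm9sf3 (0.22); the cause was not tested. Calls rest on 2 plates, and small or lowly expressed differences were not detectable.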
